A study of Rattus norvegicus with 8 samples.

Results

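H1f10 and Cyth3 were chosen because their array signals were higher after stroke in candesartan rats and lower after stroke in vehicle rats. They are 2 of the 10411 genes named alone by at least 1 probe set, and are read by 3 of the 15923 probe sets on the array, 1 for H1f10 (1371376_at) and 2 for Cyth3 (1388712_at and 1387513_at), all probe sets whose platform annotation gives 1 of these symbols alone. The choice rested on the MCAO effects of H1f10 1371376_at and Cyth3 1388712_at, so their signals in the 4 groups are given as a description with no test. The opposite effects were seen in these 2 probe sets and not in Cyth3 1387513_at.

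The study compared 4 groups of male Wistar rats aged 7 weeks, on 8 Affymetrix RAE 230A arrays. MCAO candesartan rats were pretreated for 5 days with candesartan, a blocker of the angiotensin AT1 receptor, and then had the right middle cerebral artery blocked for 90 min and reopened (MCAO, a model of stroke). Sham candesartan rats received the same drug and a sham operation, MCAO vehicle rats received saline and the occlusion, and sham vehicle rats received saline and the sham operation. The labelled dose of candesartan was 0.1 mg/kg per injection. Each array held RNA pooled from 2 rats, taken from the right side of the brain 2 h after the operation, and each group had 2 independent pools. The treatment label of MCAO candesartan array 2 named neither drug nor dose, and its group came from its source label. The values are scaled signal intensities, and the small number of arrays limits their precision: with 2 pools against 2, an exact permutation test of 1 value cannot give a p below 0.333.

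H1f10 encodes the linker histone H1x. Linker histones bind the DNA entering and leaving the nucleosome and help to compact chromatin, and H1x is made outside DNA replication, unlike several of its relatives. Cyth3 encodes cytohesin 3, also known as Grp1, which loads GTP onto Arf proteins, the small GTPases that direct membrane traffic and cortical actin. Its pleckstrin homology domain binds the lipid PIP3, so that PI3-kinase activity brings it to the plasma membrane.

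The RefSeq promoter window of each gene is shown, from 250 bases before to 50 after the annotated start, on build GRCr8. H1f10 and the Cyth3 probe set used for the choice moved together, but they were chosen for that pattern. The other Cyth3 probe set did not follow them. Shared regulation of the 2 genes was not tested. The H1f10 window is chr4:121998848-121999147 and the Cyth3 window is chr12:16047379-16047678, both on the minus strand, and capitals mark matches to the motifs searched. Cyth3 has other annotated transcripts, whose starts are not shown.
H1f10: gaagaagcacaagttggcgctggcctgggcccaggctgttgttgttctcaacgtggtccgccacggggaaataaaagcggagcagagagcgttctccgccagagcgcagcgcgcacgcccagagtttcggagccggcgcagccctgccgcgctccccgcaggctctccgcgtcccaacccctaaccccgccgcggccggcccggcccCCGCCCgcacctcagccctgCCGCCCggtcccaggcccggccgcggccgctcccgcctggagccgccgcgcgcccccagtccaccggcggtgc
Cyth3: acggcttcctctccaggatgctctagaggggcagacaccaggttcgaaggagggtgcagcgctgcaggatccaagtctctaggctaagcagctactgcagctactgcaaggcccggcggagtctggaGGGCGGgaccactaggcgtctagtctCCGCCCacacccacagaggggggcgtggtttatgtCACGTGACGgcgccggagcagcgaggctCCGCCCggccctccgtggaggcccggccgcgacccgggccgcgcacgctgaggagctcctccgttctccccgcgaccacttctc

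Both windows are rich in G and C. G and C made up 75.0% of the H1f10 window and 68.0% of the Cyth3 window, against a median of 51.7% over 33469 promoter windows of the same length. The motif shared by both was the GC box GGGCGG, searched on both strands, with 2 matches in H1f10 and 3 in Cyth3, and 33.1% of all windows hold it. The Cyth3 window also held 1 E-box CACGTG at positions -62 to -57 from the start, a motif in 6.4% of windows. That E-box overlaps 1 match to TGACG, the core of the cAMP response element, at positions -58 to -54 (21.2% of windows). Neither window matched the full cAMP response element TGACGTCA (1.8% of windows), the AP-1 site TGACTCA (4.6%), the heat shock element GAANNTTC (8.6%), CCAAT (37.5%) or TATAAA (14.2%). A match is a description of these letters and not of binding.

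H1f10 read 1422.2 and 1336.7 on the MCAO candesartan arrays, against 234.5 and 309.9 on the sham candesartan arrays. It read 248.5 and 244.5 on the MCAO vehicle arrays, against 981.0 and 927.8 on the sham vehicle arrays. The arrays of each operation were thus apart within both pretreatments, in opposite directions. The group means were 1379.4 ± 60.5 in MCAO candesartan, 272.2 ± 53.3 in sham candesartan, 246.5 ± 2.8 in MCAO vehicle and 954.4 ± 37.6 in sham vehicle (mean ± SD, n = 2 pools each). In descending order the groups ran MCAO candesartan, sham vehicle, sham candesartan and MCAO vehicle, and the lowest 2 overlapped.

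Cyth3 1388712_at was high and low in the same pairs of groups. It read 1872.6 and 2108.0 on the MCAO candesartan arrays, against 457.4 and 442.9 on the sham candesartan arrays. On the MCAO vehicle arrays it read 399.9 and 610.4, against 1161.0 and 1117.8 on the sham vehicle arrays. MCAO candesartan was highest, sham vehicle second, and the MCAO vehicle and sham candesartan arrays overlapped at the bottom. Its Pearson correlation with H1f10 over the 8 arrays was 0.969, a description only, because both were chosen for this pattern and share the arrays.

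The other Cyth3 probe set, 1387513_at, did not show it. This probe set read 670.4 and 740.8 in MCAO candesartan, against 681.9 and 760.3 in sham candesartan. It read 699.9 and 511.4 in MCAO vehicle, against 580.0 and 629.4 in sham vehicle. MCAO and sham arrays overlapped with each pretreatment, and its correlation with Cyth3 1388712_at was 0.026 over the 8 arrays. The 2 Cyth3 probe sets therefore disagree about the gene. Which transcript parts they read was not analysed here.

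**Figure D1:**
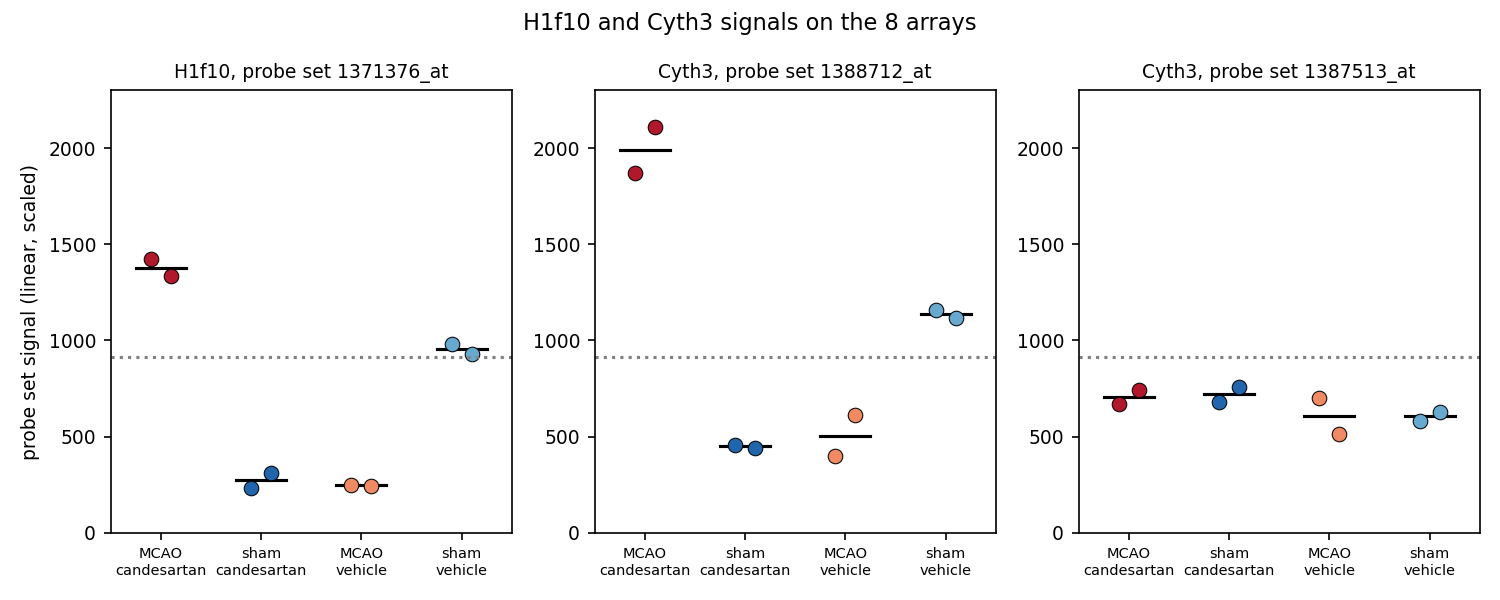
Probe set signal (linear scale) of H1f10 1371376_at, Cyth3 1388712_at and Cyth3 1387513_at on each of the 8 arrays, by group. Points are pools of 2 rats, bars are group means, and the dotted line is the signal filter of 916.3. The first 2 panels are high in MCAO candesartan and sham vehicle, while all arrays of the third lie between 511.4 and 760.3.

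As ratios of mean signal, H1f10 was 5.07-fold higher in MCAO candesartan than in sham candesartan, and the 4 ratios between single arrays ran between 4.31 and 6.07. In vehicle rats the ratio of MCAO to sham was 0.258, with single-array ratios between 0.249 and 0.268. For Cyth3 1388712_at the ratio of MCAO to sham was 4.42 with candesartan (4.09 to 4.76) and 0.443 with vehicle (0.344 to 0.546). For Cyth3 1387513_at the corresponding ratios were 0.979 and 1.00.

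On the log2 scale after adding an offset of 372.4, which understates changes of dim genes, the MCAO effect on H1f10 was 1.44 ± 0.21 with candesartan and -1.10 ± 0.21 with vehicle (± SE by limma). The effect on Cyth3 1388712_at was 1.52 ± 0.19 with candesartan and -0.80 ± 0.19 with vehicle. The candesartan effect minus the vehicle effect came to 2.54 ± 0.30 for H1f10 and 2.32 ± 0.27 for Cyth3 1388712_at. For Cyth3 1387513_at it came to -0.02 ± 0.25. Over the 10310 probe sets tested the 1st and 99th percentiles of this difference were -0.88 and 0.71, and the size of the 2 chosen ones restates the choice. In limma's fit 2 probe sets (0.0194% of those tested) had different MCAO effects at an adjusted p under 0.05, and they are the 2 the genes were chosen by, so nothing is read from that count. It was 295 without MCAO candesartan array 1, 7 without MCAO candesartan array 2, and 0 without any 1 of the other 6 arrays.

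The direction of each effect also split the arrays cleanly in many other probe sets. With candesartan, 16.9% of tested probe sets had both MCAO arrays above both sham arrays, and with vehicle 20.6% had both MCAO arrays below both sham arrays. Both features together were seen in 3.89%. Probe sets at least 0.75 (log2) higher with candesartan and at least 0.75 lower with vehicle numbered 2, these same 2, and 1 probe set had the reverse. At a size of 0.5 there were 10 each way, and at 0.25 there were 116 with this pattern and 213 with the reverse.

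**Figure D2:**
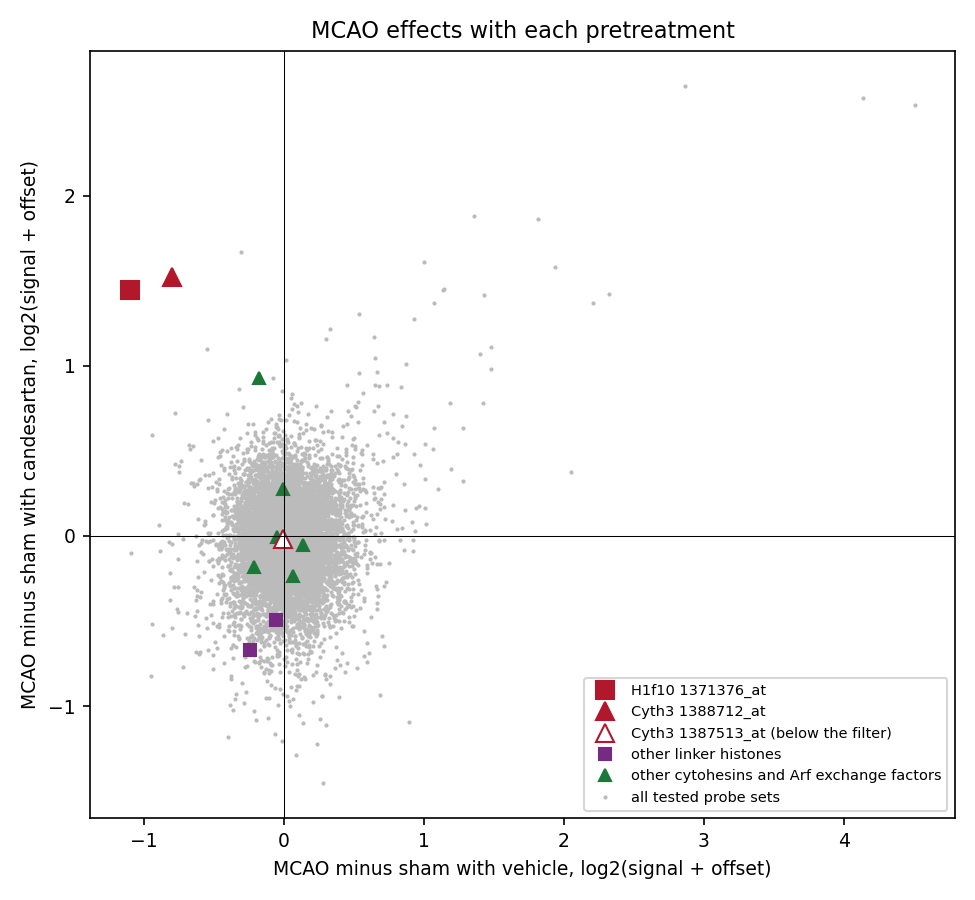
MCAO effect with candesartan (vertical) against MCAO effect with vehicle (horizontal), both as differences in log2(signal + offset), for all 10310 tested probe sets. H1f10 1371376_at and Cyth3 1388712_at lie alone at the upper left, Cyth3 1387513_at lies near the origin, and the other linker histones and Arf exchange factors are marked.

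By drug, H1f10 and Cyth3 1388712_at were higher with candesartan after MCAO and lower with candesartan after sham surgery. The ratio of MCAO candesartan to MCAO vehicle was 5.60 for H1f10 (single-array ratios 5.38 to 5.82) and 3.94 for Cyth3 1388712_at (3.07 to 5.27). The ratio of sham candesartan to sham vehicle was 0.285 for H1f10 (0.239 to 0.334) and 0.395 for Cyth3 1388712_at (0.381 to 0.409). These comparisons use the same arrays as the choice of the genes and are given as values. By limma 7 of all tested probe sets (0.0679%) were called for candesartan after MCAO, 3 higher (0.0291%) and 4 lower (0.0388%), and 0 for candesartan after sham, where 404 had an unadjusted p under 0.05. Both candesartan arrays lay above both vehicle arrays after MCAO in 18.0% of tested probe sets, and below them after sham in 14.9%. For Cyth3 1387513_at the ratios were 1.17 after MCAO (0.958 to 1.45) and 1.19 after sham (1.08 to 1.31).

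The high and low groups of H1f10 and Cyth3 also differed as arrays. The median signal was 1257.7 and 1267.2 in MCAO candesartan and 1259.2 and 1292.2 in sham vehicle. It was 1346.2 and 1319.7 in sham candesartan and 1328.2 and 1378.2 in MCAO vehicle. The log2 ratio of the 3′ to the 5′ GAPDH control probe set, a rough measure of RNA integrity and labelling, was 0.189 and 0.095 in MCAO candesartan and 0.147 and 0.113 in sham vehicle. It was 0.087 and 0.069 in sham candesartan and 0.018 and 0.003 in MCAO vehicle. All 4 arrays with high H1f10 and Cyth3 1388712_at signals thus had lower medians and higher GAPDH ratios than all 4 arrays with low signals. The actin control did not split this way, with log2 ratios of 0.803 and 0.993 in MCAO candesartan, 0.800 and 0.862 in sham candesartan, 0.911 and 1.02 in MCAO vehicle and 1.01 and 0.651 in sham vehicle. Nor did the hexokinase control, which was 1.28 and 0.627 in MCAO candesartan, 1.16 and 1.39 in sham candesartan, 1.18 and 1.07 in MCAO vehicle and 1.05 and 1.31 in sham vehicle, with MCAO candesartan array 2 the lowest of the 8. The labels name no batch, and a batch that followed this split cannot be told apart from the difference between the 2 MCAO effects.

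**Figure D3:**
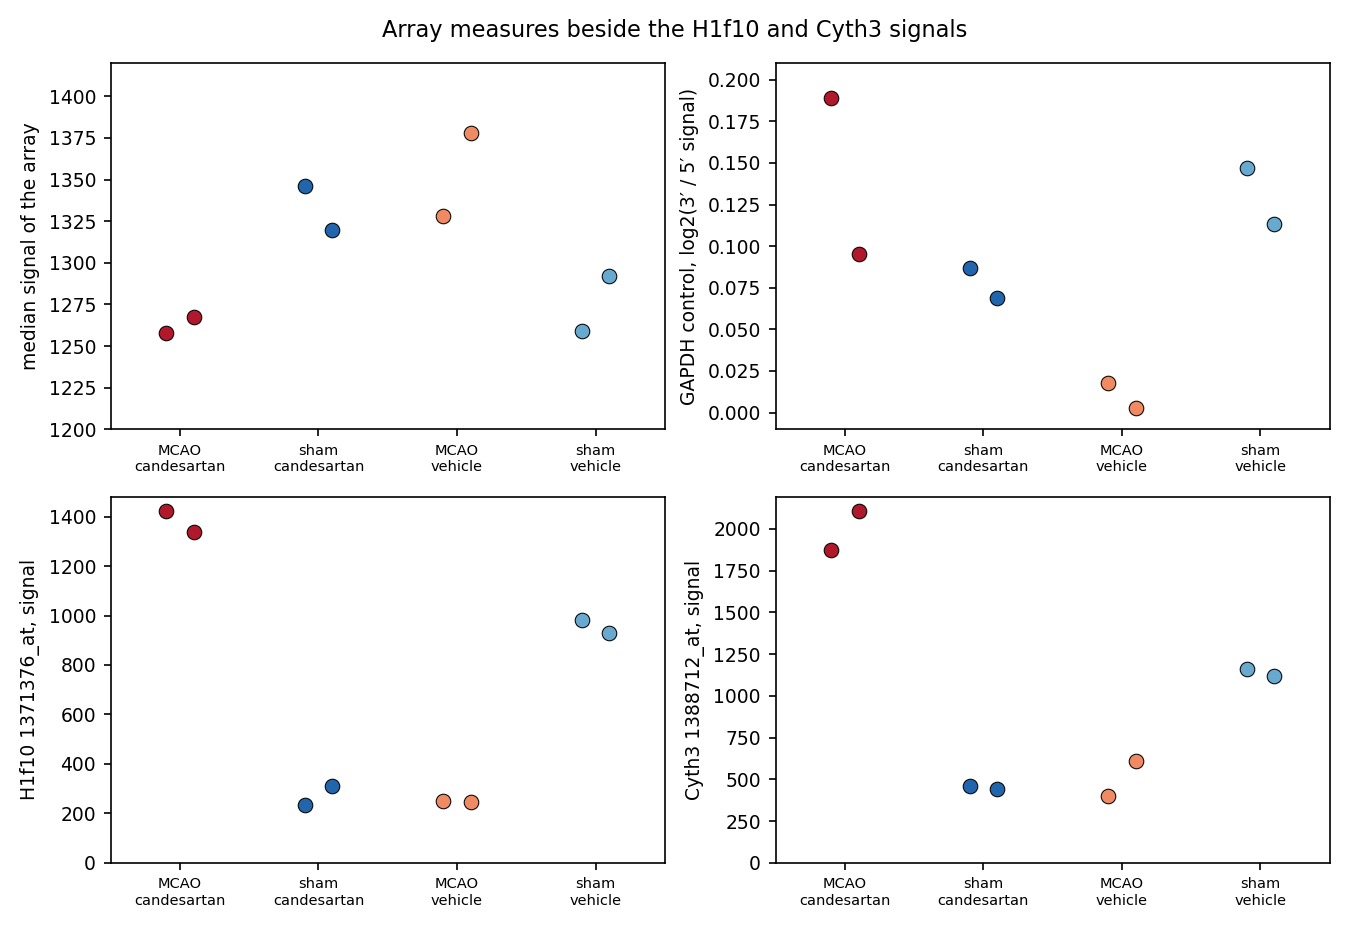
Median signal of each array, log2 ratio of the 3′ to the 5′ GAPDH control, and the signals of H1f10 1371376_at and Cyth3 1388712_at, by group, with 1 point per array. The median axis starts at 1200. The 4 MCAO candesartan and sham vehicle arrays are low in the first panel and high in the other 3.

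Comparisons within each side of that split put an operated group beside a sham group with the other pretreatment. Among the 4 arrays of low median, H1f10 was 1.44-fold higher in MCAO candesartan than in sham vehicle, with single-array ratios between 1.36 and 1.53. Cyth3 1388712_at was 1.75-fold higher there (1.61 to 1.89). Both genes had both MCAO candesartan arrays above both sham vehicle arrays, as did 20.1% of tested probe sets. Among the 4 arrays of high median, the ratio of MCAO vehicle to sham candesartan was 0.906 for H1f10 (0.789 to 1.06) and 1.12 for Cyth3 1388712_at (0.874 to 1.38), and the groups overlapped for both genes. Genes picked for opposite MCAO effects are high in the first pair of groups and low in the other by that choice, so nothing about the split is read from these ratios, and its part in the result was not tested. All 4 arrays of low median lay above all 4 of high median in 201 tested probe sets (1.95%), H1f10 and Cyth3 among them, and below them in 284 (2.75%).

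Under rescaling the differences were slightly larger. With quantile normalization, which gives all arrays the same distribution of signals, the difference between the MCAO effects was 2.66 for H1f10 and 2.45 for Cyth3 1388712_at. Leaving out each array in turn gave 2.46 to 2.63 for H1f10 and 2.14 to 2.49 for Cyth3 1388712_at. Both were chosen for this difference, so these values are a description. MCAO candesartan array 2 stood apart from the other arrays, with a mean correlation of 0.951 against 0.970 to 0.973 for the rest. Without it the difference was 2.58 for H1f10 and 2.24 for Cyth3 1388712_at. H1f10 and Cyth3 1388712_at passed the signal filter, 916.3 on at least 2 arrays, through the MCAO candesartan and sham vehicle arrays alone. On the other 4 arrays H1f10 stood at percentiles 13.7 to 16.6 of the array's signals and Cyth3 1388712_at at percentiles 21.2 to 28.3, where signals are dim, and no detection calls were used here.

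**Figure D4:**
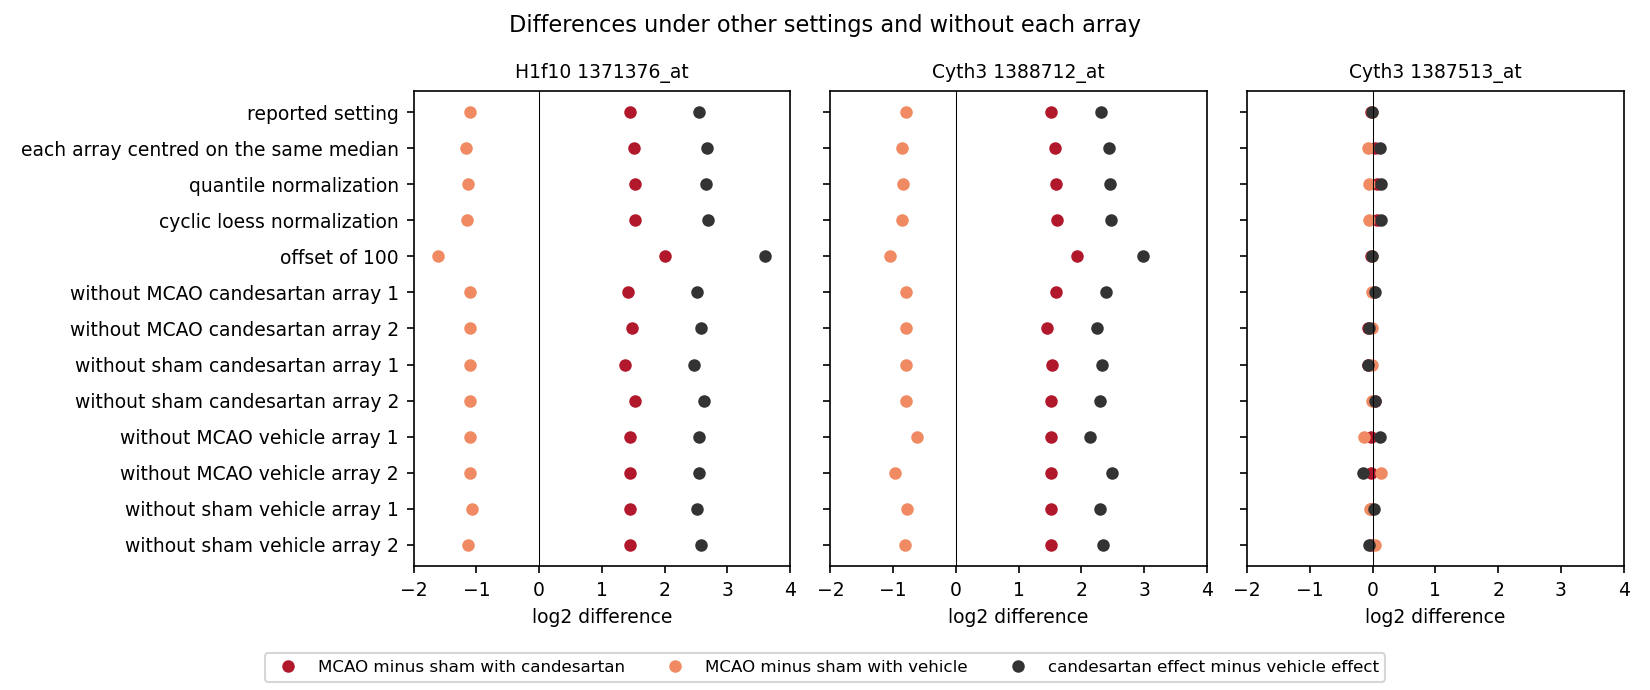
Log2 differences for the 3 probe sets (1 panel each) under other scalings, a smaller offset and without each array. Points give the MCAO effect with candesartan, the MCAO effect with vehicle, and the first minus the second. For H1f10 1371376_at and Cyth3 1388712_at every setting shown kept the candesartan effect above 0 and the vehicle effect below 0. Both were chosen for these directions, so this is a description. Their MCAO and sham arrays did not overlap, so leaving out an array could not reverse a direction. Cyth3 1387513_at stayed between -0.16 and 0.14.

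Genes with array profiles most like H1f10 were named by Pearson correlation over the 8 arrays. After Cyth3, those nearest to H1f10 were Sncb (0.961), which encodes beta-synuclein, Bola1 (0.956), Negr1 (0.953), a neuronal adhesion molecule, and Cdh13 (0.947), a cadherin. After H1f10, those nearest to Cyth3 1388712_at were Sh3bgrl3 (0.969), Alad (0.958), a heme synthesis enzyme, Negr1 (0.955) and Khdrbs1 (0.953), an RNA-binding protein. Of these 7 genes 6 had all 4 MCAO candesartan and sham vehicle arrays above the other 4, the exception being Khdrbs1. Their differences between the MCAO effects, 0.22 to 1.22 (log2), were smaller than those of H1f10 and Cyth3 1388712_at. Sncb had the largest of the 7 and averaged 6642.3 ± 351 in MCAO candesartan against 4012.7 ± 537 in sham candesartan, and 3812.0 ± 80.2 in MCAO vehicle against 5708.8 ± 175 in sham vehicle (SD, n = 2 pools each). These genes were chosen by likeness, so their values carry no test.

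**Figure D5:**
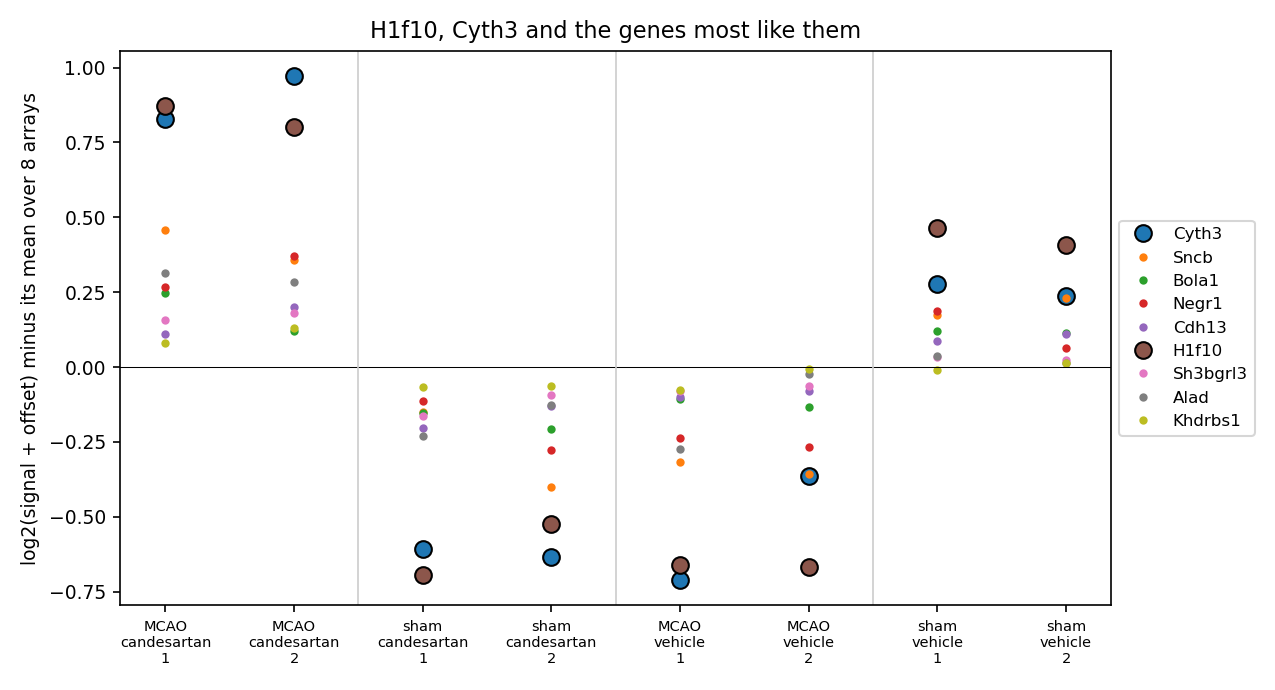
Log2(signal + offset) minus its mean over the 8 arrays for H1f10, Cyth3 1388712_at and the 7 genes most like them, with 1 column of points per array. Large points are H1f10 and Cyth3. The profiles are above their mean in MCAO candesartan and below it in sham candesartan and MCAO vehicle, and the large points have the widest range.

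The other 2 tested linker histones, H1f2 and H1f4, had MCAO effects below 0 with both pretreatments, and neither was called in the reported fit. Of 10 linker histone genes, 4 had a probe set and 3 were tested, H1f10 among them. H1f2, a major replication-linked H1, averaged 9710.1 in MCAO candesartan against 15655.1 in sham candesartan, and 11839.4 in MCAO vehicle against 14057.4 in sham vehicle. Its MCAO effect with vehicle was -0.24 (adjusted p = 0.732 by limma). With candesartan it was -0.67 and missed the threshold by limma (adjusted p = 0.0613). For the candesartan effect 0.242% of tested probe sets were called, 0.213% higher and 0.0291% lower. H1f2 was called after quantile normalization (adjusted p = 0.0339 by limma) and with cyclic loess (0.0352). In those settings 25 and 26 of 10310 probe sets were called for this effect. Over the settings that omitted no single array, its adjusted p by limma ran between 0.0339 and 0.318. Without MCAO candesartan array 1 or array 2 the effect was -0.58 or -0.77, with a single pool left in that group. H1f4 had an effect of -0.49 with candesartan (adjusted p = 0.356 by limma) and -0.06 with vehicle (adjusted p = 0.982). H1f6, which encodes a testis H1, averaged 110.9 over all arrays and was not tested. H1 genes are alike in sequence, so the signals of H1f2 and H1f4 may not be separate. Histone variants outside the H1 family, H2az1, H2ax, H2aj and Macroh2a1, had effects between -0.19 and 0.07 with candesartan and between -0.21 and 0.03 with vehicle.

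The closest relatives of Cyth3 were near 0 in the difference between the MCAO effects. Cyth1 averaged 1259.8 in MCAO candesartan against 1476.4 in sham candesartan, and 1216.8 in MCAO vehicle against 1471.0 in sham vehicle. Cyth2 averaged 6346.1, 6342.5, 6363.8 and 6583.6 in MCAO candesartan, sham candesartan, MCAO vehicle and sham vehicle. The differences between their MCAO effects were 0.03 for Cyth1 (adjusted p = 0.982 by limma) and 0.04 for Cyth2 (adjusted p = 0.965 by limma). Psd, which encodes an exchange factor for Arf6, averaged 3183.6 in MCAO candesartan against 1529.4 in sham candesartan, and 952.8 in MCAO vehicle against 1049.9 in sham vehicle. Its MCAO effects were 0.93 with candesartan (adjusted p = 0.284 by limma) and -0.18 with vehicle (adjusted p = 0.956 by limma), and neither passed. Leaving out sham candesartan array 1 gave 0.59 with candesartan, and leaving out sham candesartan array 2 gave 1.26. The other exchange factors Arfgef1, Arfgef2, Gbf1 and Iqsec1 had differences between the MCAO effects of -0.31, -0.19, 0.28 and -0.04, and Psd4 was below the filter.

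Among genes of the pathway around Cyth3, Arf1, a Golgi Arf, averaged 50347.3 in MCAO candesartan against 44249.8 in sham candesartan, and 39922.2 in MCAO vehicle against 44589.4 in sham vehicle. The differences between the MCAO effects were 0.35 for Arf1, 0.19 for Arf3, 0.33 for Sar1a and 0.48 for Arl3, the brightest of the 12 tested Arf and Arf-like genes. Arf6, the Arf of the plasma membrane, averaged 2184.2 in MCAO candesartan against 2306.0 in sham candesartan, and 2804.4 in MCAO vehicle against 2628.4 in sham vehicle. The median MCAO effect of the 12 genes was 0.15 with candesartan and -0.12 with vehicle, against -0.03 and 0.01 over all tested probe sets. The difference between the effects was above 0 in 9 of 12, against 43.1% of all tested probe sets. It was also above 0 in 9 of 11 Arf GTPase activating proteins, 8 of 11 neuron markers and 7 of 13 genes around PI3-kinase. Over all tested probe sets the median of this difference was -0.05 with the deposited scaling and 0.08 with arrays centred on the same median.

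Arf GTPase activating proteins, which switch Arfs off, had median MCAO effects of 0.17 with candesartan and 0.01 with vehicle over 11 tested genes. Their brightest members Smap2, Git1, Smap1 and Adap1 had differences between the effects of 0.07, 0.51, 0.17 and 0.11. For 13 PI3-kinase subunits, phosphatases of PIP3 or related lipids, and kinases downstream, the medians were 0.02 with candesartan and 0.10 with vehicle. Of these, Pdpk1, Inpp4a, Akt1 and Pik3r2 had differences of 0.25, 0.16, 0.25 and 0.16. The list drawn up as cytohesin partners had 3 tested genes, Grsf1, Snx27 and Cnksr2, with medians of 0.10 and -0.04. Grsf1 encodes an RNA-binding protein and does not belong on that list, so these medians do not describe cytohesin partners. Snx27 and Cnksr2 had MCAO effects of -0.09 and 0.15 with candesartan, and of -0.15 and -0.04 with vehicle. On the chromatin side, 17 histone chaperones and architectural proteins had medians of -0.04 with candesartan and 0.04 with vehicle, with differences of -0.16 for Nap1l5, -0.32 for Hmgb1, -0.03 for Hmgn1 and 0.10 for Hmgn2.

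Leaving out H1f10 and Cyth3, the 8 family and pathway lists held 69 tested genes, Grsf1 included. Called by limma were 0 of them for MCAO with candesartan, where 0.242% of all tested probe sets were called, 0 for MCAO with vehicle (0.262%) and 0 for the difference between the effects (0.0194%). At an unadjusted p under 0.05 the counts were 5 (7.25%), 5 (7.25%) and 4 (5.8%), against 12.4%, 7.05% and 8.87% of all tested probe sets. H1f2 passed for MCAO with candesartan after quantile normalization and with cyclic loess, where 25 and 26 of 10310 probe sets were called.

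RNA came from whole tissue, so that fewer cells of a type and less RNA per cell cannot be told apart. Brain markers were present: 11 of 12 neuron, 11 of 11 astrocyte and 10 of 12 oligodendrocyte markers had a probe set, and 0 of these stayed below the offset on all arrays. The summed signal of the neuron markers was 258228 to 287764 in MCAO candesartan, 216941 to 224524 in sham candesartan, 212412 to 220981 in MCAO vehicle and 211650 to 237265 in sham vehicle. The sum was highest in MCAO candesartan, where H1f10 and Cyth3 1388712_at were highest, while the sham vehicle arrays, also high in both, overlapped the low groups. Most of the gain over sham candesartan lay in Snap25, a synaptic fusion protein. Snap25 averaged 100091.4 ± 19654.4 in MCAO candesartan against 64641.4 ± 2946.4 in sham candesartan (SD, n = 2 pools each). Camk2a, a kinase of excitatory synapses, averaged 13405.6 ± 3498.3 in MCAO candesartan against 4435.8 ± 3137.9 in sham candesartan (SD). Camk2a had 3 probe sets, of which only the brightest tested one is given. The MCAO effect with candesartan was above 0 in 8 of 11 neuron markers and below 0 in Map2, Gap43 and Eno2 (-0.08, -0.03 and -0.22). By limma 0 of the 11 were called for it, where 0.242% of all tested probe sets were. At an unadjusted p under 0.05 by limma there were 4 of 11, against 12.4% of all tested probe sets. For the difference between the MCAO effects there were also 4 of 11, against 8.87%. The astrocyte sum was 240683 to 313353 in MCAO candesartan, 269345 to 284921 in sham candesartan, 245496 to 251732 in MCAO vehicle and 284712 to 288248 in sham vehicle. The oligodendrocyte sum was 307902 to 398101 in MCAO candesartan and 300074 to 312387 in sham candesartan. It was 283792 to 315083 in MCAO vehicle and 287680 to 289718 in sham vehicle. Mbp, a myelin gene, averaged 176705.2 ± 77058.4 in MCAO candesartan against 115712.8 ± 2201.4 in sham candesartan (SD). The MCAO effect with candesartan was below 0 in 7 of 10 oligodendrocyte markers. Of the tested markers of neurons (11), astrocytes (11), oligodendrocytes (10), microglia and macrophages (11), endothelial and mural cells (7), blood cells (4) and choroid plexus and ependyma (5), 0 were called for the difference between the MCAO effects, against 0.0194% of all tested probe sets. Its medians in these lists, in the same order, were 0.21, 0.02, -0.17, -0.08, -0.003, -0.20 and -0.46 (log2), against -0.05 over all tested probe sets. The part of cell composition in the signals of H1f10 and Cyth3 was not tested.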

How the data were processed

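RNA of 8 pools of rat brain tissue, 2 pools in each of 4 groups, was read on 1 array each, and the source labels gave the groups. The authors deposited 1 linear signal intensity per probe set and array, and GCOS, the Affymetrix software, is named per the submitters' processing notes. Its version and settings are not given in the sources used here. Arrays had nearly equal means after trimming 2% at each end, and this deposited scaling was kept.

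Of 15923 probe sets, 57 controls were left out. Values were log2(signal + 372.4), the offset being the 20th percentile of non-control values. Tests used the 10310 probe sets above 916.3, the 40th percentile, on at least 2 arrays. The filter and the offset set which dim probe sets enter and how large their differences appear. The 4 group means were fitted in limma 3.58.1 (R 4.3.3) with a variance trend and 4 residual degrees of freedom, and 5 contrasts had Benjamini-Hochberg adjustment over all tested probe sets, called at 0.05. The SE of Cyth3 1387513_at, below the filter, comes from the same fit without the filter. The fit was tested on simulated data with independent noise and changes in MCAO candesartan alone. These data held no split of the arrays and no outlying array, so the test does not bear on either. Symbols came from the platform annotation, where 12783 probe sets had 1 symbol, 312 several and 2771 none, and 12748 of the first matched RefSeq (GRCr8). Where a gene had several probe sets, the brightest tested one stood for it.

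The members, gene lists and motifs were chosen with earlier results of these data known. By rule, the text names all probe sets of H1f10 and Cyth3, the 5 genes most like each in array profile, both genes' families, and from each other list the called and the 4 brightest members. Arf6 was named after its values were seen. The p-values and SEs rest on a spread between pools that limma partly borrows from the other probe sets. For H1f10 its own pooled SD was 0.068 (log2), while the SE of each MCAO effect by limma was 0.21. Alternatives covered scaling, offset, filter, the groups fitted, pool number as a replicate block, and the omission of single arrays. List counts without each MCAO candesartan array were added after the data were seen. They are not given, because such a fit leaves a single pool in that group.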

Additional observations from a re-analysis of the deposited data

Results flagged for a closer look

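The candesartan effect of MCAO minus its vehicle effect was 2.54 for H1f10 1371376_at and 2.32 for Cyth3 1388712_at (log2). These probe sets were picked out here by the size of that difference, which is also what the genes were chosen by, so the values are a description. The number of probe sets called for it was 0 with the replicate block, the offset of 100, no filter or the stricter filter, and without any 1 of 6 of the 8 arrays. Groups of 2 pools are too small for a check of single outlying arrays.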

How the results depend on the processing

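The MCAO effects on H1f10 1371376_at and Cyth3 1388712_at kept their directions under all alternatives run. Both were chosen for these effects, so this is a description. Their MCAO and sham arrays did not overlap with either pretreatment, so leaving out an array could not reverse a direction. The difference between the MCAO effects on H1f10 was 2.67 with arrays centred on the same median, 2.66 with quantile normalization and 2.69 with cyclic loess. Under the same 3 scalings that of Cyth3 1387513_at was 0.11, 0.13 and 0.14. With quantile normalization and cyclic loess that of Cyth3 1388712_at was 2.45 and 2.47, and the candesartan effect on H1f10 was 1.53 with either. With an offset of 100, H1f10 had a candesartan effect of 2.00, a vehicle effect of -1.61 and a difference of 3.60, and Cyth3 1388712_at had 1.92, -1.06 and 2.98, since a smaller offset compresses dim signals less. Without 1 array, the candesartan effect was 1.36 to 1.53 for H1f10 and 1.45 to 1.59 for Cyth3 1388712_at, the vehicle effect -1.13 to -1.07 and -0.97 to -0.62, and the difference 2.46 to 2.63 and 2.14 to 2.49. For Cyth3 1387513_at the difference was -0.16 to 0.12. Counts of called probe sets depended more on the setting. For the difference between the MCAO effects the count was 0 with the offset of 100, without the filter, with the stricter filter and with the replicate block, and 0 to 295 without 1 array. For MCAO with candesartan it was 16 without the filter, 11 in a fit of only the groups compared, and 5 to 836 without 1 array. For MCAO with vehicle it was 12, 93 and 7 to 43 in the same settings. For candesartan after MCAO it was 0 without the filter, 0 in a fit of only the groups compared, 2 with the offset of 100, 4 with the replicate block and 0 to 985 without 1 array. Each fit without 1 array leaves a single pool in a group, which adds nothing to the estimated spread. Among those fits, the highest count in each of these 4 comparisons was without MCAO candesartan array 1. The pool then left in that group, array 2, stood apart from the other arrays. The cause of the high counts was not tested. Pools with the same number were not shown to pair: correlations of their deviations over 6 pairs of groups ran between -0.0951 and 0.1368, with 1 over 0.1. The block is balanced over the groups and cannot change a difference, only its error and the calls. Dim signals limit the low values of both genes.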
